A study of Caenorhabditis elegans with 2 samples.

Results

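The regions described are those that lie on chromosome X in a list of 30000 genome regions ranked by signal from chromatin immunoprecipitation and sequencing (ChIP-seq) of the worm transcription factor ELT-1. X holds 5977 of the 30000 regions, taken by chromosome alone and not by their signal. Of these, 97 also belong to the authors' thresholded list of 351 regions and are called peaks below, and the other 254 peaks lie on the 5 autosomes. The 351 peaks are the 351 strongest of the ranked regions by signal. The remaining X regions were ranked by the authors without passing any threshold, and 5876 of them overlap no peak.

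The study profiled whole L2 larvae of Caenorhabditis elegans in 2 biological replicates that form its only group. The strain, OP354 (unc-119(tm4063) III; wgIs354), carries a transgene that tags ELT-1 with enhanced green fluorescent protein, and the labels give the animals as pooled male and female. No untagged or untreated group was analysed here, so X is set against the autosomes of the same lists. Not given in the sources used here are the promoter of the transgene, its insertion site and the strain behind the control libraries. Whole larvae mix all cell types, so a region's signal cannot be assigned to a tissue.

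ELT-1 is a zinc finger protein of the GATA family, which reads the DNA core GATA, and it is required in the worm embryo to make epidermal cells. In larvae it is known for its part in the seam and the main epidermis, the cells that secrete the collagen cuticle and replace it at each molt. The X chromosome of the worm is present as a pair in hermaphrodites and singly in males, and a dosage compensation complex lowers transcription from both copies in hermaphrodites. Many worm X genes act in somatic tissues such as epidermis, muscle and neurons, and few act in the germline.

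The sequences below are the summit windows of the 7 strongest X peaks, followed by 2 promoter peaks at epidermal matrix genes, a strong promoter peak that lacks the motif, and the X window with the most copies of it. Each covers 50 bp on either side of the summit on the plus strand of ce11, read from the RefSeq genome sequence, and capitals mark WGATAR. This motif was searched as AGATAA and AGATAG and as TGATAA and TGATAG, on both strands, so that TTATCT or CTATCT is a copy read from the minus strand.
nhr-17: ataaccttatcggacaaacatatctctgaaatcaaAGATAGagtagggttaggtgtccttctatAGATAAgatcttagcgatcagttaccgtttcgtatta
sdz-19: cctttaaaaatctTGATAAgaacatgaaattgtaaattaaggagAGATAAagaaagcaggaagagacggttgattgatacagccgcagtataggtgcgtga
scd-1, rank 11: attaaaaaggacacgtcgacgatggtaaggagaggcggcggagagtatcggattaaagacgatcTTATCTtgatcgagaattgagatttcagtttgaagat
T23E7.6: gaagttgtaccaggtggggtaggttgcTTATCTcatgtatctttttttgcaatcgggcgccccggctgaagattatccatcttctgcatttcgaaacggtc
mdl-1: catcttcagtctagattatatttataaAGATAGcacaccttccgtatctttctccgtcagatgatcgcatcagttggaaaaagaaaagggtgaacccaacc
hsp-3: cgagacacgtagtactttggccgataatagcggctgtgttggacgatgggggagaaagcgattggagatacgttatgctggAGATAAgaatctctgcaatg
scd-1, rank 19: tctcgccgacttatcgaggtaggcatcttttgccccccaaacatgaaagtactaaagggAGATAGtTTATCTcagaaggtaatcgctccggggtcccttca
dpy-7: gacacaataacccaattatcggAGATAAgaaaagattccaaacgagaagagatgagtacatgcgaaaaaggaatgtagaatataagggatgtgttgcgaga
lpr-3: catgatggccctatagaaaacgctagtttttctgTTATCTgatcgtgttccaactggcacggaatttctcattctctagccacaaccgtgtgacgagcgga
nhr-32: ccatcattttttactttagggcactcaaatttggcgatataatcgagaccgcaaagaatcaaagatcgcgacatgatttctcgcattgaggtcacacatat
sprr-1: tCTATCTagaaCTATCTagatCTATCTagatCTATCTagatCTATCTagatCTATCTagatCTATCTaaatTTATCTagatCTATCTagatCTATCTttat

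All 7 of the strongest X peaks hold a capital run within their window. The centre of the nearest copy lies 3.5 bp from the summit at sdz-19, 12.5 bp at nhr-17, and 11.5 bp at the scd-1 peak of rank 19. It lies 20.5 bp away at T23E7.6 and at mdl-1, and 33.5 bp away at hsp-3. The windows of nhr-17, sdz-19 and the scd-1 peak of rank 19 hold 2 copies each. The nhr-32 window holds 0. The sprr-1 window, chosen after its value was seen, holds 10 copies in a tandem array, all at a spacing of 10 bp.

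The strongest X peak (chrX:12671779-12671873) lay between genes, 3982 bp upstream of nhr-17, which encodes a member of the nuclear hormone receptor family. Divided by the signal of the median region of each list, its signal came to 12.4-fold in replicate 1 and 9.64-fold in replicate 2, the scale used for all folds below. It ranked 7 and 8 in those lists and 6 in the pooled list. The replicates ranked it alike. The next (chrX:12500859-12500924) lay between genes, 2444 bp downstream of the transcript start of sdz-19, a gene named for its dependence on the regulator SKN-1. It reached 12.3-fold in replicate 1 and 8.69-fold in replicate 2.

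A pair of peaks lay in introns of scd-1, a gene named for the suppression of constitutive dauer formation. The peak at chrX:12515942-12516052 reached 10.7-fold and 8.51-fold in replicates 1 and 2, and the peak at chrX:12511452-12511715 reached 11.1-fold and 4.80-fold. The replicates thus stood close on the first and apart on the second. The sdz-19 summit lies 10690 bp from the nearer scd-1 summit, and nhr-17 lies 156 kb beyond the farther one. This stretch from 12.5 to 12.7 Mb, picked out after its values were seen, held 4 peaks among 81 ranked regions, and all 4 were among the 7 strongest on X.

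Promoter peaks, with a summit from 1000 bp before to 200 bp after a protein-coding transcript start, were led by T23E7.6 (chrX:17684996-17685088), which RefSeq lists as a symporter. In replicate 1 its signal was 10.1-fold and in replicate 2 8.58-fold over the median. The mdl-1 peak (chrX:6743838-6744101), at 9.23-fold and 8.06-fold, had its summit at 6743970, just past the gene's end at 6743899. The gene encodes a Mad-like repressor that pairs with the worm Max protein. The hsp-3 peak (chrX:6092554-6092817) reached 8.24-fold and 7.63-fold, 562 bp upstream of this Hsp70 chaperone gene of the endoplasmic reticulum, and also lay in the promoter window of the neighbouring gene C15H9.5. Each of these genes had a second, weaker peak nearby.

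The 20 strongest X peaks ran down to rank 62 of the pooled list, 6.41-fold over its median. All 20 were matched by a summit within 100 bp in both replicates, and all 20 had the higher fold in replicate 1. They comprised 7 promoter, 7 intronic, 5 intergenic and 1 exonic peak, and 16 of the 20 held WGATAR within 50 bp of the summit. Besides those above they lay at gst-42, an enzyme of tyrosine breakdown (7.69-fold and 6.42-fold), at nhr-32 (9.24-fold and 4.41-fold) and at rml-3, an enzyme of nucleotide-sugar synthesis (7.98-fold and 5.35-fold). An intron of C44H4.4 held a peak 1793 bp upstream of let-4, which encodes a leucine-rich repeat protein of the apical matrix (6.82-fold and 5.91-fold).

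The mec-7 peak lay inside an intron of deg-1, a degenerin channel gene, and mec-7 itself encodes a tubulin of touch neurons (7.97-fold and 3.72-fold). An intron of igcm-3, an immunoglobulin-domain adhesion gene, reached 8.34-fold and 3.27-fold. Uncharacterized genes were F09A5.3, K08H2.7 and C06E2.5, whose promoter peaks lay at 9.50-fold, 9.08-fold and 10.4-fold in replicate 1. In replicate 2 those peaks lay at 5.48-fold, 4.70-fold and 3.67-fold. The remaining nearest genes were sma-9, the F-box gene K08B5.2 and C24H10.3, whose exonic peak held 4 WGATAR copies. One peak had no transcript start within 5 kb, its nearest gene being pix-1 at 9572 bp.

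**Figure D1:**
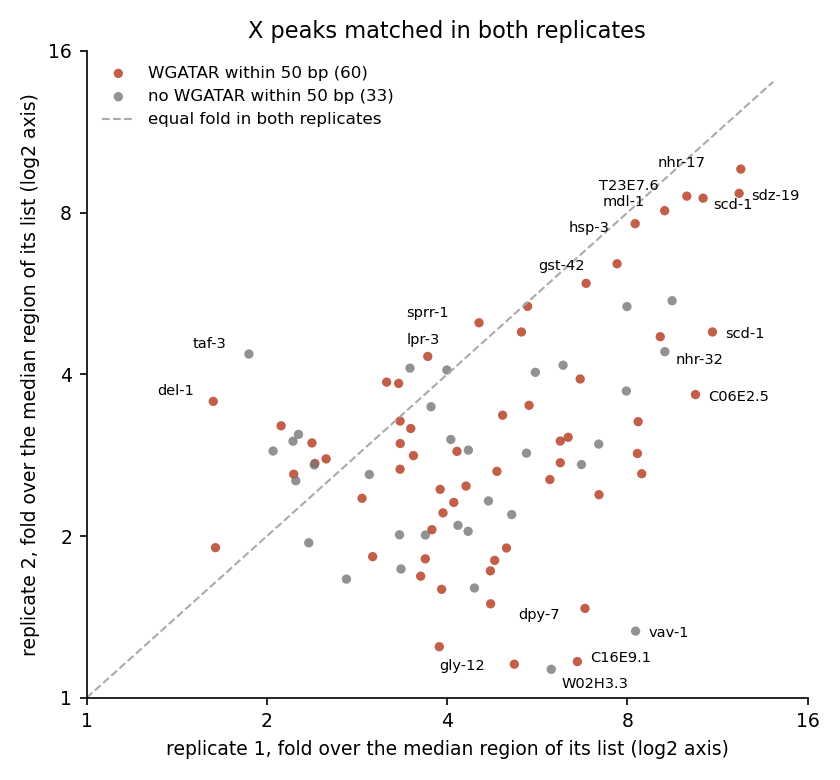
Signal of the 93 X peaks matched in both replicates, as the fold over the median region of each replicate's list on log2 axes, coloured by WGATAR within 50 bp of the summit (60 with, 33 without). Most points (74) lie below the line of equal fold, the strongest peaks near nhr-17, sdz-19, scd-1 and T23E7.6 lie at the upper right, and a few such as gly-12, W02H3.3 and C16E9.1 lie near the floor of replicate 2.

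The 97 X peaks had pooled signals between 24.6 and 115.4 and a median signal of 33.02, which is 4.23-fold over the median ranked region. In replicate 1 the matched peaks ran from 1.63-fold to 12.4-fold with a median of 4.52-fold, and in replicate 2 from 1.13-fold to 9.64-fold with a median of 2.88-fold. The lists differ in scale, and replicate 1 gave the higher fold for 74 of the 93 X peaks with a match in both and for 199 of 239 such autosomal peaks. Spearman's rho between the replicate folds was 0.336 over the 93 X peaks and 0.324 over the 239 autosomal peaks. These peaks share their libraries, and all were chosen by their pooled signal, so rho is given as a description.

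Of the X peaks, 93 of 97 (95.9%) had a matching summit in both replicates, against 239 of 254 autosomal peaks (94.1%). The shares did not differ detectably (odds ratio 1.46, 95% interval 0.449 to 6.19, p = 0.61 by a two-sided Fisher's exact test). Peaks were picked by how stably regions rank between these same replicates. A high match was thus largely set in advance on X and autosomes alike, and is not separate support for the peaks. Over all ranked regions the shares were 14.8% on X and 13% on the autosomes. The 4 unmatched X peaks were missing from 1 list each. The sma-9 peak of rank 82 and the peak near W01H2.2 had no match in replicate 1, and the exonic peaks in mrp-1 and wrt-6 had none in replicate 2.

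Among the first 351 regions of each replicate's own list stood 76 of the 97 X peaks in replicate 1 and 64 in replicate 2. In both stood 48 of them (49.5%), beside 47.6% of the autosomal peaks, and in neither stood 5. The 3 matched X peaks whose ranks lay farthest apart were all strong in replicate 1. The intergenic peak near W02H3.3 ranked 93 and 10541 (5.97-fold and 1.13-fold), the promoter peak of gly-12, a glycosyltransferase gene, 130 and 9836 (5.18-fold and 1.16-fold), and an intronic peak of C16E9.1 74 and 9519 (6.60-fold and 1.17-fold). Such regions lie close to the median of the replicate 2 list and rest on replicate 1.

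X ranked regions passed into the thresholded list more often than autosomal ones. The share was 1.62% on X, 97 of 5977 regions, and 1.06% on the autosomes, 254 of 24023. With regions that overlap a peak left out of the comparison, the odds ratio was 1.54 (95% interval 1.21 to 1.96, p = 0.00045 by a two-sided Fisher's exact test). Single autosomes ran from 0.829% on III to 1.30% on II, all below X. Per Mb, X carried 5.47 peaks and 337 ranked regions, and the autosomes between 2.54 and 3.93 peaks and between 272 and 306 ranked regions.

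The excess was present in both replicates taken alone. Of the first 351 regions of replicate 1, 101 lay on X, which is 1.68% of its X regions against 1.04% of its autosomal regions (odds ratio 1.63, 1.28 to 2.06, Fisher's exact test, adjusted p = 0.00014 over the 2 replicates). In replicate 2, 91 lay on X, 1.53% against 1.08% (odds ratio 1.43, 1.11 to 1.82, Fisher's exact test, adjusted p = 0.0046). These tests treat regions as independent, although neighbours on a chromosome share a locus, so the p-values cover the counting of regions only. Chromosome X and the tests were also chosen with earlier results of these data known, and no adjustment was made over the 6 chromosomes. The replicates are the same libraries that make up the pooled list. Counting 10 kb bins with a peak gave an odds ratio of 1.79 (1.37 to 2.33). That value is not a share of ranked regions, of which X held more per Mb than any autosome. In a logistic model with the place and GC content of each region, the odds ratio was 1.46 (1.15 to 1.85). Without regions within 20 kb of elt-1 itself, on chromosome IV, it was 1.60 (1.25 to 2.04).

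**Figure D2:**
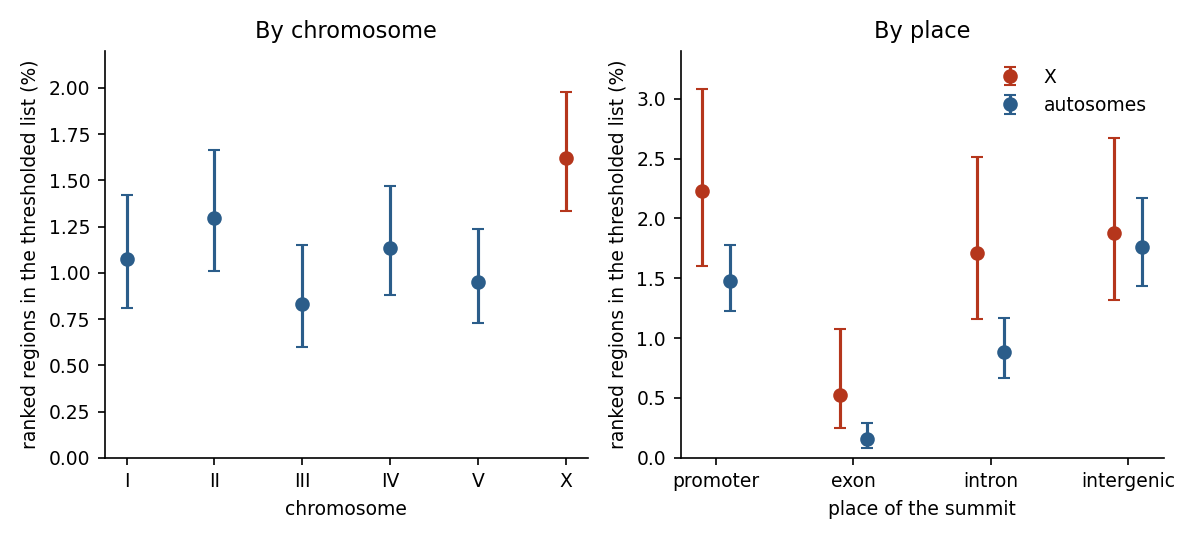
Share of ranked regions that belong to the thresholded list, in percent with Wilson 95% intervals, by chromosome (left) and by the place of the summit for X and for the autosomes together (right). X stands at 1.62% against 0.829% to 1.30% on single autosomes, and the intergenic shares of X and the autosomes nearly coincide.

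By place, the X share was the higher in promoters, exons and introns. Of ranked regions in promoters, 35 of 1571 on X (2.23%) and 110 of 7449 on autosomes (1.48%) were peaks, an odds ratio of 1.52 (1.00 to 2.25, Fisher's exact test, adjusted p = 0.048). In introns it was 25 of 1464 (1.71%) against 47 of 5334 (0.881%), an odds ratio of 1.95 (1.15 to 3.25, Fisher's exact test, adjusted p = 0.036). In exons it was 7 of 1342 (0.522%) against 10 of 6301 (0.159%), an odds ratio of 3.30 (1.06 to 9.62, Fisher's exact test, adjusted p = 0.038). Between genes the shares were 1.88% and 1.76%, an odds ratio of 1.07 (0.677 to 1.64, Fisher's exact test, adjusted p = 0.75).

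Each of these 3 calls rests on choices. With promoters from 500 bp before to 100 bp after a start, none of them passed: the odds ratios were 1.27 for promoters, 2.97 for exons and 1.62 for introns (Fisher's exact test, adjusted p = 0.33, 0.1 and 0.11). With replicate 2 alone the promoter odds ratio was 1.57 (Fisher's exact test, adjusted p = 0.057) and the exon odds ratio was 0.930 (Fisher's exact test, adjusted p = 1). With promoters from 2000 bp before to 500 bp after a start, the exon and intron odds ratios were 2.71 and 2.04 (Fisher's exact test, adjusted p = 0.13 and 0.062).

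Set against the 254 autosomal peaks, the X peaks did not differ in where they lay by any test that passed. Promoters held 36.1% of X peaks and 43.3% of autosomal peaks, introns 25.8% and 18.5%, exons 7.22% and 3.94%, and intergenic positions 30.9% and 34.3%. The adjusted Fisher exact p was 0.35 for promoters, introns and exons and 0.61 for intergenic positions, with an interval for the promoter odds ratio from 0.441 to 1.23. Relative to the nearest transcript start, 63 X peaks lay upstream and 34 downstream, at a median distance of 1274 bp, and 7 lay beyond 5 kb. Other X regions lay at a median of 1404 bp.

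The share of X fell from tier to tier of rank in the pooled list. X held 27.6% of the first 351 regions, 23.3% of ranks 352 to 1000, 22.85% of ranks 1001 to 3000 and 18.8% of the last 10000, against 19.9% of all regions and 17.7% of the genome's length. Among the first 20 pooled regions 7 lay on X, among the first 100 it was 30, and the 5 strongest regions of the genome lay elsewhere. In replicate 1 the X share went from 28.8% to 23.4%, 20.9%, 20.9%, 19.5% and 19.2% over the same 6 tiers. In replicate 2 it went from 25.9% to 24.8%, 20.7%, 19.4%, 19.9% and 19.1%.

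The difference sat at the top of the lists and was small over the body of them. Of all pairs of an X and an autosomal region, the X region had the higher signal in 52.3% in the pooled list, 51.6% in replicate 1 and 51.1% in replicate 2. Against single autosomes the pooled value ran from 51.3% for II to 52.8% for V. The median X region ranked 14242 and the median autosomal region 15189. At percentile 99 of each set the X regions stood 3.87-fold over the median of the list and the autosomal ones 3.20-fold.

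**Figure D3:**
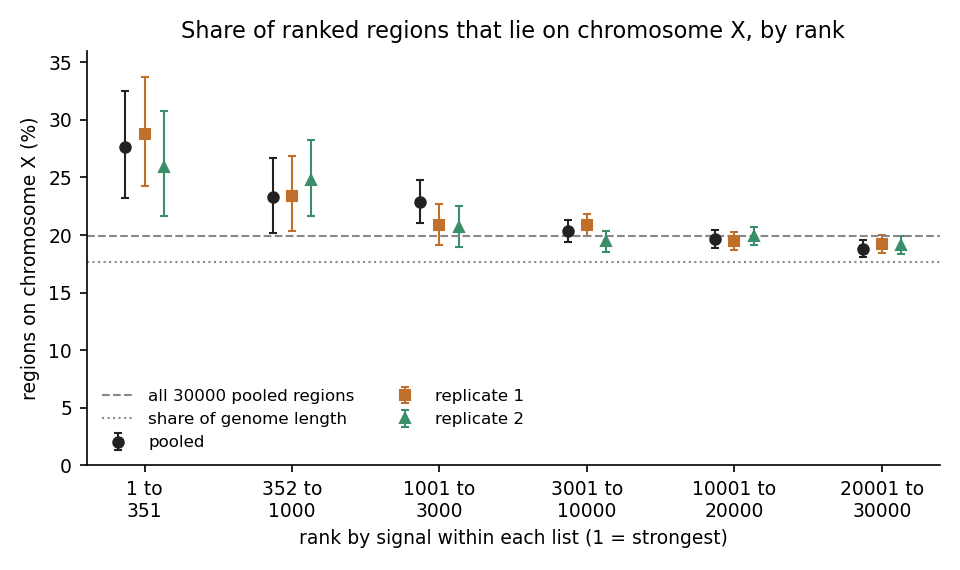
Share of regions that lie on chromosome X within 6 tiers of rank, for the pooled list and both replicate lists, in percent with Wilson 95% intervals. In all 3 lists the first tier is the highest, between 25.9% and 28.8%, and the tiers beyond rank 10000 lie near the 19.9% of X in the whole pooled list.

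WGATAR marked the X peaks, as it did the autosomal peaks. It was found in the 101 bp summit window of 61 of 97 X peaks (62.9%) and of 1277 of the 5876 other X regions (21.7%), an odds ratio of 6.10 (3.96 to 9.53, p = 7.3e-18 by a two-sided Fisher's exact test). The form AGATAA stood in 39.2% of X peaks and 7.44% of other X regions, AGATAG in 14.4% and 3.51%, TGATAA in 11.3% and 8.76%, and TGATAG in 5.15% and 4.46%. The bare core GATA was in 83.5% of X peaks and 49.4% of other X regions, beside 82.3% and 49.1% on the autosomes. There WGATAR was found in 128 of 254 peaks (50.4%) and 4789 of 23764 other regions (20.15%). The autosomal odds ratio was 4.025 (3.12 to 5.2, p = 1.8e-26 by a two-sided Fisher's exact test). AGATAA stood in 31.5% of autosomal peaks and 6.42% of other autosomal regions. Of the X peaks, 45 held 1 copy, 13 held 2 and 3 held 3 or more. The motif tests here and below, like those by place, treat neighbouring regions as independent, so their p-values cover the counting of regions only.

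Among X peaks the motif was present in 22 of the 32 strongest, 21 of the next 32 and 18 of the last 33. It was held by 17 of 25 intronic, 5 of 7 exonic, 19 of 30 intergenic and 20 of 35 promoter peaks. X peaks without WGATAR had a median of 4.08-fold in the pooled list and those with it 4.28-fold. Their median GC content around the summit was 47.03% without the motif and 40.6% with it, beside 44.55% and 39.6% in autosomal peaks. The motif is itself rich in A and T, so the split favours a difference in this direction.

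X peaks held the motif somewhat more often than autosomal peaks did, 62.9% against 50.4% (odds ratio 1.67, 1.01 to 2.78, p = 0.042 by a two-sided Fisher's exact test). Single autosomes ran from 31.4% on III to 59.3% on V. This difference depended on the settings. It passed with the motif sought within 100 bp (odds ratio 1.92, Fisher exact p = 0.016) and with the first 351 regions of replicate 1 (1.70, Fisher exact p = 0.034). It did not pass with the motif sought within 25 bp (odds ratio 1.44, Fisher exact p = 0.16), for AGATAA alone (1.40, Fisher exact p = 0.21), among the stronger 176 peaks (1.84, Fisher exact p = 0.094) or with the first 351 regions of replicate 2 (1.496, Fisher exact p = 0.11). The excess over other regions was not shown to differ between X and autosomes either. The ratio between the odds ratios of X and the autosomes in a logistic model was 1.52, with an interval from 0.934 to 2.46 that spans 1.

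The copies were densest at the summit. Within 25 bp, X peaks held 10.9 WGATAR sites per kb, autosomal peaks 8.03 and other X regions 2.74. At 75 to 100 bp the X peaks fell to 2.89 per kb, beside 2.84 in other X regions, and from 100 to 200 bp they lay at 4.43 and 4.02 per kb. The tandem array in the intron of sprr-1, a neuropeptide receptor gene, supplied part of this. Without that peak the density was 10 per kb within 25 bp and 2.08 at 75 to 100 bp. At 100 to 150 and 150 to 200 bp it was 3.96 and 3.65, beside 2.515 and 2.553 in other X regions. The sprr-1 peak reached 4.52-fold in replicate 1 and 4.99-fold in replicate 2. Not given in the sources used here is how reads were assigned within this repeat.

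**Figure D4:**
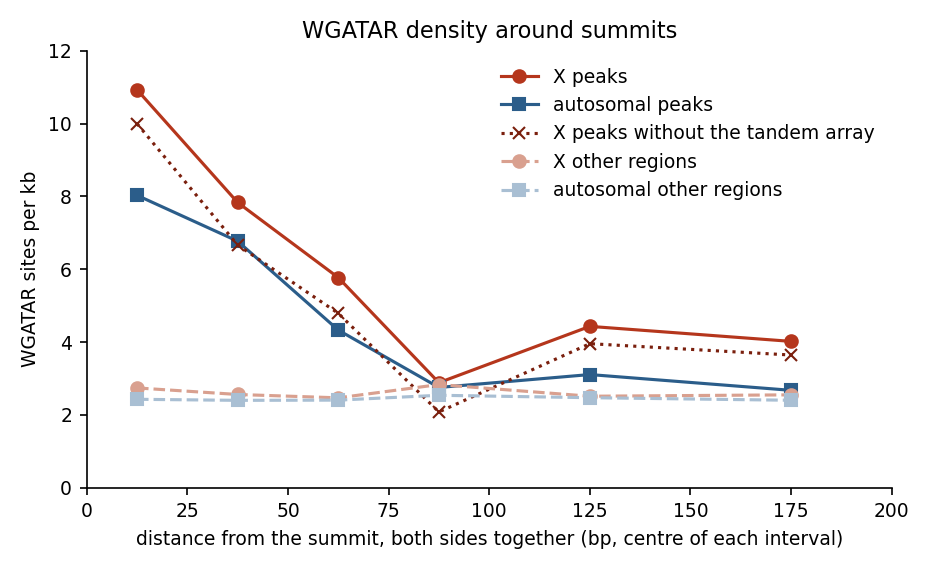
WGATAR sites per kb by distance from the summit, both sides together, for X peaks, X peaks without the tandem array in sprr-1, autosomal peaks and the other ranked regions of each. X peaks start at 10.9 sites per kb within 25 bp of the summit and meet the other regions at 75 to 100 bp. From 100 to 200 bp they lie higher again, at 4.43 and 4.02, while other regions stay near 2.5 throughout.

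X peaks lay in the promoter windows of 34 of the 1282 protein-coding X genes with at least 1 ranked region there, which is 2.65%. On the autosomes it was 127 of 6849 genes, 1.85%. Of 24 gene lists, 7 had such an X member, and in all 11 of 101 listed X genes with a ranked region in the window were called. The lists were drawn up with earlier results of these data known, so these counts describe where the X peaks lay and test nothing.

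Nuclear hormone receptors, ligand-responsive transcription factors that are unusually numerous in worms, had a promoter peak at 2 of 19 X members, nhr-32 and nhr-137. With the whole gene and 5 kb upstream taken in, an assignment chosen after the data were seen, it was 9 of 26, beside 116 of 2509 X genes (4.62%). By the same assignment it was 6 of 15 genes of junctions, attachment and the apical matrix and 3 of 29 cuticle collagens. It was 3 of 4 heat shock and proteostasis genes, and each other list had 0 or 1 gene. Of the proteostasis genes, only hsp-3 had peaks nearest to its own start. There hsp-43 was counted through the rml-3 peaks and pdi-2 through the promoter peak of C07A12.7. Among the apical matrix genes, lpr-5 and lpr-6 were counted only through the lpr-3 peak. Nearest to the 9 receptor genes lay 10 peaks, 8 of them with WGATAR, 4 among the 100 strongest regions of the genome and all matched in both replicates.

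Beyond nhr-17 and nhr-32, the receptor gene nhr-25 had 2 peaks. It is the worm counterpart of Ftz-F1 and is needed for molting and epidermal development. The peak in its intron (chrX:13011922-13012185) reached 6.18-fold in replicate 1 and 2.74-fold in replicate 2, and the peak 3618 bp upstream 4.80-fold and 1.80-fold. Neither lay in its promoter window, whose best region ranked 10062. An intron of nhr-48 held a peak of 7.17-fold and 2.39-fold, and an intron of nhr-91 one of 5.02-fold and 1.90-fold.

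Further receptor peaks lay upstream of nhr-71 (3.32-fold and 3.85-fold), nhr-35 (3.88-fold and 1.25-fold) and nhr-1 (3.00-fold and 1.83-fold). The promoter peak of nhr-137 reached 4.34-fold in replicate 1 and 2.04-fold in replicate 2. All but the nhr-71 peak were stronger in replicate 1.

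Genes of the cuticle and the epidermal surface also held peaks. Of the cuticle collagens on X, 2 of 17 had a promoter peak. The dpy-7 peak (chrX:7537936-7538199), 276 bp upstream of a collagen gene of the cuticle furrows, reached 6.80-fold in replicate 1 and 1.47-fold in replicate 2, where it ranked 3971. The col-172 peak lay 922 bp upstream at 3.94-fold and 2.21-fold. The collagen gene dpy-3 had its best promoter region at rank 425, outside the threshold.

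Of junction, attachment and apical matrix genes, 3 of 14 had a promoter peak. The peak of lpr-3 (chrX:11057007-11057270), a lipocalin-related gene of the apical matrix, reached 3.71-fold in replicate 1 and 4.32-fold in replicate 2. The peak of dlg-1, the worm Discs large gene of epithelial junctions, reached 2.41-fold and 2.73-fold, and that of sym-1, a secreted leucine-rich repeat protein, 2.40-fold and 2.71-fold. These 3 were slightly higher in replicate 2, and in the pooled list they ranked 133, 254 and 271, which made them numbers 38, 71 and 78 of the 97 X peaks. The lpr-3 peak also lies within 5 kb upstream of lpr-6 and lpr-5, which follow on the same strand with best promoter regions at ranks 5192 and 1625.

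Other listed genes with a promoter peak were single members. They were sma-9, the Schnurri-type cofactor of the body size pathway (4.10-fold and 2.31-fold), mdl-1 with its weaker second peak (2.11-fold and 3.21-fold), hsp-3, and del-1, a degenerin channel gene of motor neurons (1.63-fold and 3.56-fold). Of the X genes tested, none had a promoter peak among 1 GATA factor, 4 genes of the X signal, sex determination and dosage compensation, 10 hedgehog-related and patched-related genes, 4 heterochronic genes and 3 epidermal transcription factors. The share over all X genes with a ranked region in the window was 2.65%, so lists this small cannot show a lack of peaks. The nearest misses were fox-1, a counter of X dose, at rank 412 and the patched-related gene ptr-4 at rank 423. The best region in the epidermal GATA factor gene elt-3 or 5 kb upstream ranked 5246, and lin-14, a timing regulator of larval stages, had an intronic peak at rank 330 (2.05-fold and 2.88-fold).

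Among lists for other tissues, the motor neuron list had a promoter peak at 1 of 4 X genes tested, del-1. There were 0 among 1 intestinal, 2 body wall muscle, 1 pan-neuronal and 6 neuronal transcription factor genes tested. The pharynx and germline lists had no X gene to test. Such small numbers do not show that the genes lack peaks. The same holds for the Wnt, receptor tyrosine kinase, cell cycle, ribosomal protein, histone and cytochrome P450 lists, with 0 of 1 to 4 X genes each.

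X peaks had a neighbour about as often as autosomal peaks at 5 kb, and more often than the autosomes together at 10 and 20 kb. X also carried more peaks per Mb than any autosome, and the shares were not adjusted for this. Joined at summit gaps of up to 10 kb, 38 of 97 X peaks (39.2%) had a neighbour, in 16 pairs and 2 groups of 3, and the 97 peaks made 77 separate loci. On the autosomes 83 of 254 (32.7%) had a neighbour, with single autosomes between 22.9% and 40.7%. At 5 kb the shares were 27.8% and 27.95%, and at 20 kb 47.4% and 38.2%, where the highest single autosome, III, had 45.7%. No test was run, since neighbours are not independent.

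The groups of 3 lay at sma-9 and at igcm-3. At sma-9 they spanned 3268 bp, with summits 3018 bp and 554 bp upstream of the nearest start and 244 bp downstream of it, where the window held 3 WGATAR copies. That last peak reached 8.45-fold in replicate 1 and 2.61-fold in replicate 2. At igcm-3 the 3 peaks spanned 9118 bp, 1 of them in an intron of the neighbouring calcium channel gene unc-2 (6.70-fold and 2.72-fold). Of all 18 groups the pair in scd-1, 4390 bp apart, had the highest summed signal, 170.2, followed by the pair at K08H2.7 and nhr-32 with 133, sma-9 with 126.9 and igcm-3 with 120.1.

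Close pairs put both peaks by 1 gene at C06E2.5 (444 bp apart), hsp-3 (488 bp), F57G12.1 (526 bp) and rml-3 (531 bp). Whether summits this near are separate signals was not tested. The second hsp-3 peak, 74 bp upstream of the start, reached 4.06-fold in replicate 1 and 3.03-fold in replicate 2, held no WGATAR and had the highest GC content of the X peaks, 66.3%. The second T23E7.6 peak lay 1334 bp upstream at 2.88-fold and 2.35-fold.

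**Figure D5:**
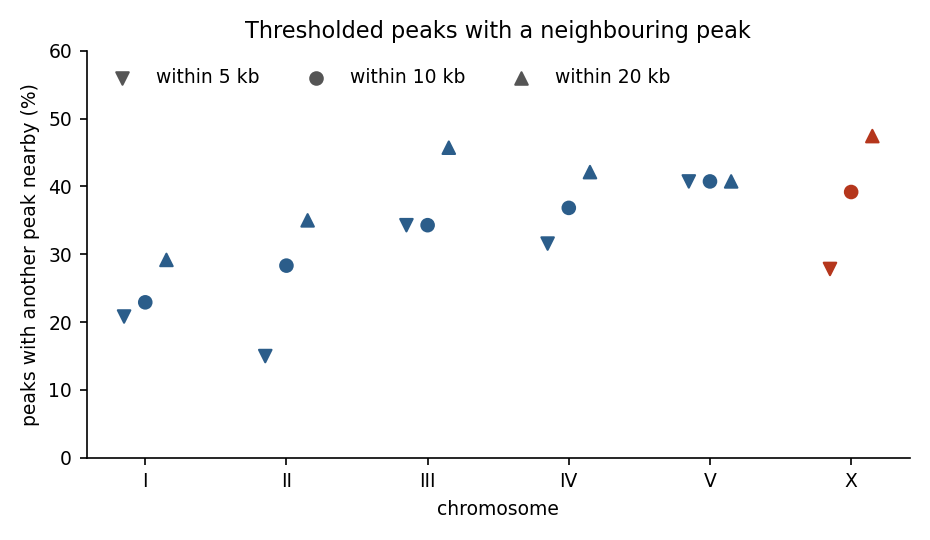
Share of thresholded peaks with another peak within 5, 10 or 20 kb, in percent, by chromosome. X (red) lies within the range of the autosomes (blue) at 5 and 10 kb and slightly above it at 20 kb.

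Along X the peaks were uneven. Of 18 intervals of 1 Mb, the fullest, from 13 to 14 Mb, held 14 peaks among 354 ranked regions, and the next, from 6 to 7 Mb, held 12 among 374. The interval from 1 to 2 Mb held 0 peaks among 245 ranked regions, and the first 2 Mb held 2 in all. The median interval held 5, against 2 to 4 on single autosomes, whose fullest intervals held between 5 and 14. The fullest X interval included K08H2.7, nhr-32, F09A5.3, pix-1, nhr-71 and both nhr-25 peaks.

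Regions on either side of the threshold hardly differed in signal. The last X peaks, upstream of T23E7.6, dhhc-10 and nhr-1, ranked 347, 348 and 350 at pooled signals of 24.7, 24.6 and 24.6. The 3 strongest X regions outside the list ranked 353, 355 and 359, at 24.5, 24.5 and 24.4. The region of rank 353 lay in an intron of the zinc finger gene B0310.2 (3.57-fold in replicate 1 and 1.51-fold in replicate 2). That of rank 355 lay in the promoter of the peroxisome gene prx-1 (3.81-fold and 1.41-fold). That of rank 359 lay in an exon of F38B6.4, with the nearest start that of F38B6.8 (2.61-fold and 2.87-fold). Of ranks 352 to 1000, 31.8% of the X regions held WGATAR, and of ranks 1001 to 3000 it was 24.9%, beside 20.9% in the last tier.

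Most ranked X regions were not seen at the same place in the replicates. Of the 5977, 883 (14.8%) had a summit within 100 bp in both replicate lists and 1375 (23%) in neither, and on the autosomes these shares were 13% and 23.3%. X peaks had a median GC content of 42.6% around the summit and other X regions 37.6%, the same medians as on the autosomes. Bases that the reference marks as repeats or low complexity touched 34.0% of X peak windows and 66.3% of other X regions, against 43.7% and 69.7% on the autosomes. Of the X peaks, 93 had the same width of 264 bp, and the 4 narrower ones were nhr-17, sdz-19, the scd-1 peak of rank 11 and T23E7.6.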

How the data were processed

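ELT-1 ChIP-seq was analysed in both biological replicates of L2 larvae. The authors ranked 30000 regions for each replicate and for both pooled, each time with a control, per the listing among the deposited files. From these they made the thresholded list by irreproducible discovery rate, a measure of how stably regions rank between replicates. The values used are the signal per region as the authors deposited it. Not given in the sources used here are its normalization, the aligner, the peak caller and the threshold, and read depth is unknown.

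Signal was turned into a rank, or divided by the signal of the median region of its own list, because scales differ between lists. Replicate values came from the nearest summit within 100 bp. Positions count from 1 on ce11, which is WBcel235, with genes from Ensembl release 115 and sequence from RefSeq. Summits were assigned to promoter, exon, intron or intergenic, in that order. Fisher's exact tests, two-sided, compared shares (exact 95% intervals, Benjamini-Hochberg adjustment within a family, threshold 0.05) in scipy 1.17.1, and logistic models were fitted in statsmodels 0.14.6. The odds ratio on X, the motif search and the summit matching were tested on simulated data with known answers. For the odds ratio, regions were drawn independently of their neighbours. The other steps were not tested in this way.

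Chromosome X, the gene lists and the tests were chosen with earlier results of these data known. Named genes are those nearest, within 5 kb, to the 20 strongest X peaks, up to 4 X members of each list with the strongest promoter peaks, those nearest to the 3 largest clusters, the 3 X peaks with the largest rank difference between replicates and the 3 strongest X regions outside the threshold. Other genes, such as the further nuclear hormone receptors, sprr-1 and the genes of close pairs, were named after their values were seen. Of the listed names, 5 were not in the annotation.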

Additional observations from a re-analysis of the deposited data

How the results depend on the processing

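Of 71 alternative values, 52 kept their direction and their side of the threshold, or moved within the set bounds. The X share of peaks kept both under all 14 alternatives, with odds ratios from 1.27 to 1.79, and with 1 replicate from 1.43 to 1.63. These alternatives are not independent, since all reuse the same libraries. Some left out a single autosome, and as every autosome lay below X, their direction could not change. WGATAR in X peaks against other X regions kept both under all 6, from 3.27 to 8.01.

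By place, with promoters of 500 bp before and 100 bp after a start, the odds ratio of the X share was 1.27 in promoters, 2.97 in exons and 1.62 in introns, and with 2000 and 500 bp it was 2.71 in exons and 2.04 in introns, none of them passing. With single replicates the promoter value ran from 1.55 to 1.57 and the exon value from 0.930 to 4.71. For the place of X peaks against autosomal peaks, no alternative gave a call, and the intergenic odds ratio turned to 1.14 with the narrower window and the exon value ran from 0.563 to 2.61 with single replicates. WGATAR in X peaks against autosomal peaks passed within 100 bp at 1.92. It did not pass at 1.44 within 25 bp, 1.40 for AGATAA alone and 1.84 in the stronger 176 peaks, and it was 1.496 to 1.70 with single replicates. The match of X peaks in both replicates was 0.967 within 50 bp, and within 200 bp every X peak was matched, so no finite odds ratio exists. The share of pairs with the X region higher ran from 51.05% to 51.6% with single replicates. The number of X genes with a peak was 19 and 52 with the narrower and the wider window, and 116 over the gene and 5 kb upstream, an alternative chosen after seeing the data. The cause of these changes was not tested, beyond the windows holding fewer or more regions.

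No paired analysis was possible because the study has 1 group. Read depth is unknown, so no value has an interval for the counting of reads. The 2 replicates limit every comparison, and the lists lack a group without the tagged protein. Beyond the label of biological replicates, nothing says that they came from separate cultures.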
